A study of Mus musculus with 19 samples.

Results

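Dlx1, Dlx2, Dlx5, Gad1, Gad2, Lhx6, Maf and Erbb4 are 8 genes by which cortical interneurons and their migrating precursors are commonly recognised. They were taken by symbol from a table of 47643 gene symbols. All 8 were among the 13520 genes that were tested, those that reached 1 TPM in 4 or more libraries. TPM is a transcript level corrected for gene length and scaled to the same total in each library. The levels come from RNA sequencing of total RNA from pieces of mouse cortex from E14.5 embryos. The mutants carried GFAP::Cre; SmoM2. SmoM2 is an always-active form of Smoothened, the membrane protein that relays the Hedgehog signal, and Cre recombinase driven by GFAP sequences switches it on. The controls were wildtype. There were 4 mutant medial, 5 control medial, 4 mutant dorsal and 6 control dorsal libraries. The tissue label of a library reads dorsal or medial, but the protocol speaks of medial or lateral cortex, so the dorsal pieces may be what the protocol calls lateral.

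Cortical interneurons are inhibitory neurons that arise outside the cortex, in the ganglionic eminences of the ventral forebrain, and migrate tangentially into it. Their identity is set up by Dlx transcription factors, and those from the medial eminence go on to depend on Lhx6. Excitatory neurons of the cortex, by contrast, are born locally from cortical progenitors. In a bulk piece of cortex the RNA of interneurons is mixed with that of all other cells, so fewer interneurons and less of these transcripts per interneuron cannot be told apart.

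The genes encode proteins with 3 kinds of role. Of the 8, 5 encode transcription factors. Dlx1 (mm10 chr2:71528113-71533981, plus strand) and Dlx2 (chr2:71543408-71546754, minus strand) are neighbours whose gene bodies lie 9426 bases apart. Dlx5 (chr6:6877805-6882085, minus strand) lies 9236 bases from Dlx6. Lhx6 (chr2:36081953-36105408, minus strand) encodes a LIM-homeodomain factor of interneurons from the medial ganglionic eminence, and Maf (chr8:115682942-115707794, minus strand) a leucine-zipper factor of the same lineage that is also expressed elsewhere. Gad1 (chr2:70553072-70602014, plus strand) and Gad2 (chr2:22622205-22693874, plus strand) encode the enzymes that make the inhibitory transmitter GABA. Erbb4 (chr1:68032186-69108059, minus strand) encodes a neuregulin receptor that guides migrating interneurons. Positions are those of whole protein-coding genes in GENCODE M21 on GRCm38, the assembly also called mm10.

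Promoter windows in RefSeq (GRCm38.p6), each 300 bases long and spanning an annotated start, matched 6 of the 8 genes with 8 windows; Dlx5 and Maf had no entry. TAATTA and TAATTG, which hold the TAATT core that homeodomain factors such as the Dlx proteins commonly bind, were searched on both strands (TAATTA reads the same on both). A match lay in 1 of the 8 windows, against 12.4% of all 32851 windows in the table. The windows of the neighbouring pair are shown first, then those of Gad1, which tracked the other genes most closely, and of Lhx6, which held the match (TAATTG, in capitals). They run 5′ to 3′ on the strand of the gene and lie at chr2:71529195-71529494 (plus), chr2:71546705-71547004 (minus), chr2:70561879-70562178 (plus) and chr2:36104011-36104310 (minus).
Dlx1: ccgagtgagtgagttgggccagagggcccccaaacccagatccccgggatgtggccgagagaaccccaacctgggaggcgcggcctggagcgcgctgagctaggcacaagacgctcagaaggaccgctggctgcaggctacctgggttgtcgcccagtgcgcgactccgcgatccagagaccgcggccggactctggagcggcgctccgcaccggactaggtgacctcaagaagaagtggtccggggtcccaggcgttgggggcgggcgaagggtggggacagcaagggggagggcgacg
Dlx2: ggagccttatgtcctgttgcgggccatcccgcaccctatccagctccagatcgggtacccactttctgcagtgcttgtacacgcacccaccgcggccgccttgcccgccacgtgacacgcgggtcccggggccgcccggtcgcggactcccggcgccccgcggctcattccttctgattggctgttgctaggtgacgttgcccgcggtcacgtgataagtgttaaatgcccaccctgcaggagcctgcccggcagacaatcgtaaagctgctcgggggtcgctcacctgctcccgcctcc
Gad1: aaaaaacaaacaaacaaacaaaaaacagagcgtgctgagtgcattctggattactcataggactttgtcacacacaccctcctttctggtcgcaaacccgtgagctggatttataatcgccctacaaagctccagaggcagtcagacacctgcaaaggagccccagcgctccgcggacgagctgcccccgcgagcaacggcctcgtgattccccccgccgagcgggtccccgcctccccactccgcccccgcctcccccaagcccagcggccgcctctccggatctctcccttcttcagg
Lhx6: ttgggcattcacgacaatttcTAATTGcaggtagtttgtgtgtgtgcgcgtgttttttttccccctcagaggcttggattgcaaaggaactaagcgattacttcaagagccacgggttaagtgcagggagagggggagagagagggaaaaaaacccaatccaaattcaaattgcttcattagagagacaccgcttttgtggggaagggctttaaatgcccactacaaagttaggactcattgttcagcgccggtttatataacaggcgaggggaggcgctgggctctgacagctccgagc
A match of letters is not evidence of binding, and a window without a match may still be bound elsewhere.

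Each library held 17357 to 18670 gene symbols above 0, and because the TPM of every library sum to 1000000 its sequencing depth is unknown. Gli1, a direct Hedgehog target, had 24.3 to 48.1 TPM in the mutant medial libraries, against 0.200 to 0.558 TPM in the control medial libraries. Dorsally it had 30.7 to 42.8 TPM in the mutants, against 0.327 to 1.08 TPM in the controls. Every library therefore matched its genotype label. The pallial gene Emx1, which marks cortex of dorsal origin, was at 102 to 195 TPM in all libraries. Nkx2-1, which defines medial ganglionic eminence progenitors, stayed at or below 0.713 TPM in all 19 libraries, and Gsx1 at or below 0.150 TPM. Lhx8 and Six3, of ventral forebrain neurons, stayed at or below 0.0781 and 0.0656 TPM. Other ventral forebrain genes were higher. Ppp1r1b and Drd1, of striatal projection neurons, ran from 4.38 to 31.3 TPM and from 1.84 to 14.05 TPM over all 19 libraries. Gsx2 and Olig2, of ventral progenitors, reached 3.93 and 29.5 TPM, both in mutant libraries. Whether the pieces held ventral tissue was not tested.

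The 8 genes were low in every library, between 0.172 and 24.0 TPM, and they had a common order. In the control medial, mutant dorsal and control dorsal groups the order of mean level per length was Lhx6, Erbb4, Dlx1, Maf, Gad2, Gad1, Dlx2 and Dlx5. Gad2 and Gad1 did not separate, with Gad2 above Gad1 in 3 of 5 control medial libraries, 2 of 4 mutant dorsal libraries and 3 of 6 control dorsal libraries. All other neighbours in that order held in all 5 control medial and all 6 control dorsal libraries. In the mutant medial group the order of means was Lhx6, Maf, Erbb4, Dlx1, Gad1, Gad2, Dlx2 and Dlx5. Erbb4 nevertheless exceeded Maf in 3 of those 4 libraries, so Maf's place there came from the library numbered 3.

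Medial cortex had less of these transcripts than dorsal cortex, in mutants and in controls. Lhx6 had 2.95, 5.46, 0.603 and 7.60 TPM in the 4 mutant medial libraries (numbers 1 to 4), against 13.2, 18.6, 8.11 and 18.3 TPM in the mutant dorsal libraries of the same numbers. In the controls it had 6.28, 7.35, 14.2, 14.503 and 12.3 TPM in the medial libraries (numbers 2 to 6). The 6 control dorsal libraries had 18.9, 21.6 and 24.0 TPM as their lowest, median and highest. Neither genotype's regions overlapped for Lhx6, and mutant medial library 3 was the lowest of all 19.

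**Figure D1:**
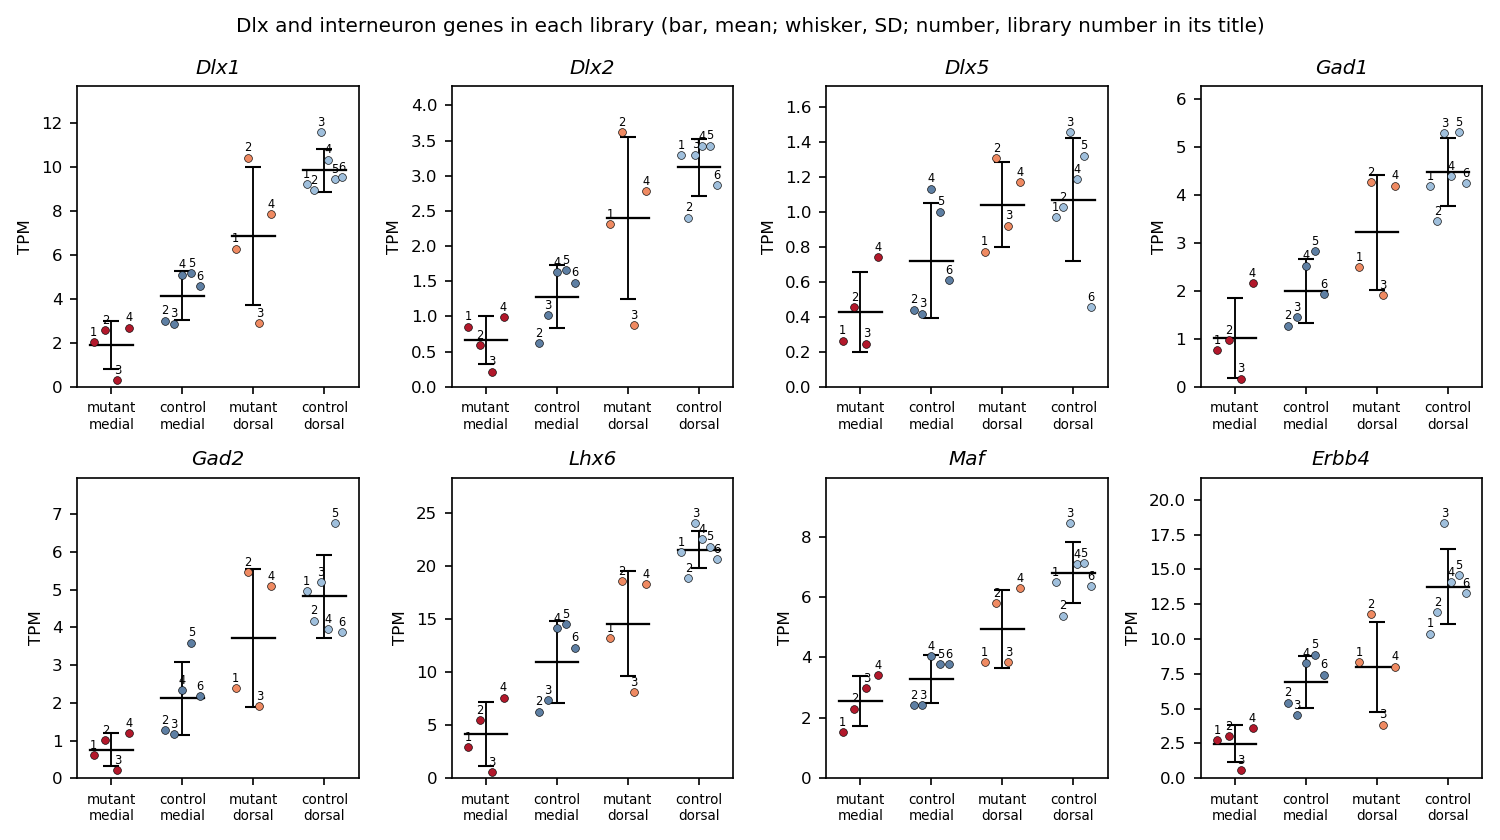
TPM (vertical axis, from 0) of each of the 8 genes in every library. Groups run from left to right as mutant medial, control medial, mutant dorsal and control dorsal; points are libraries with their title numbers, black bars are means and whiskers SD. Lhx6 averaged 4.15 TPM in mutant medial and 10.9 TPM in control medial cortex, against 14.6 TPM in mutant dorsal and 21.5 TPM in control dorsal cortex.

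In mutants, all 8 genes were lower medially than dorsally (limma on log2(TPM + 1), adjusted p from 0.00399 to 0.0396), where 10.8% of all genes tested were lower. Lhx6 differed by -1.78 ± 0.39 (log2 difference ± SE), Dlx1 by -1.45 ± 0.31 and Erbb4 by -1.39 ± 0.31. The smallest differences were those of Maf, -0.75 ± 0.19, and Dlx5, -0.52 ± 0.17. The pseudocount of 1 TPM shrinks log2 differences of genes as low as these, which hits Dlx5 hardest. The libraries of the 2 regions did not overlap for 6 of the 8 genes, the exceptions being Dlx2 and Gad1 (8.05% of all genes lay fully lower). Fitted on these 8 mutant libraries alone, the same differences had adjusted p from 0.0569 to 0.0770 and none passed. In that fit 0 of the 13520 genes tested passed in either direction.

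In controls, 7 of the 8 were lower medially, where 14.9% of all genes were. Dlx1 differed by -1.10 ± 0.26 (limma adjusted p = 0.00397), Lhx6 by -0.98 ± 0.33 (adjusted p = 0.0310) and Maf by -0.88 ± 0.16 (adjusted p = 0.000558). The log2 difference of Dlx5 was -0.27 ± 0.15 with a 95% interval from -0.58 to 0.04 (adjusted p = 0.179). The 7 that passed were also those whose regions did not overlap (9.39% of all genes lay fully lower). Lhx6 lost its call when control dorsal library 3 or 4, or control medial library 2 or 3, was left out (adjusted p from 0.0545 to 0.0937). The median log2 difference over the 8 genes was -1.24 in mutants and -0.90 in controls, against 0.0026 and 0.0095 over all genes. Genes of other neurons were lower medially in the same comparisons. Of 15 pan-neuronal genes, 11 were lower and 0 higher in mutants (median log2 difference -0.48), and 9 were lower and 1 higher in controls (median -0.39). Of 10 pallial glutamatergic genes, 5 were lower and 2 higher in mutants, and 6 lower and 3 higher in controls. With each library rescaled to the mean of those 15 pan-neuronal genes, 2.01% of all genes were lower and 73.2% higher medially in mutants. In controls 3.45% were lower and 61.5% higher. Among the genes still called lower were Dlx1, Dlx2, Gad1, Gad2, Lhx6 and Erbb4 in mutants, and Dlx1, Dlx2, Gad1, Gad2, Maf and Erbb4 in controls. What part other neurons had in the regional differences of the 8 genes was not tested further.

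The same held within embryos. Dorsal and medial libraries with the same number and genotype deviated from their group means together, so the title numbers were read as embryos, of which 9 had both regions. For the control medial libraries the sample descriptions carry other replicate numbers than the titles. The medial level was below the dorsal one in 71 of 72 pairs of gene and embryo, and the exception was Dlx5 in control 6, with a medial-to-dorsal ratio of 1.34. These pairs are not separate tests, since the 8 genes varied together. For most of them pairing could not matter, because the regions did not overlap for 6 genes in mutants and 7 in controls. The same count over all genes tested was not made. With the controls paired by description number, an alternative chosen after seeing the data, the medial level was below the dorsal one in 40 of 40 control pairs, against 39 of 40 by title number. Only Dlx5 could differ between these pairings, because the control regions did not overlap for the other 7 genes. The median ratio over the 8 genes was 0.324, 0.252, 0.132 and 0.433 in mutants 1 to 4, against 0.352, 0.280, 0.583, 0.539 and 0.562 in controls 2 to 6. Controls 2 and 3 thus lay among the mutants, and their medial libraries also had the lowest summed levels of the control medial group (20.8 and 21.2 TPM). Those 2 libraries had Cajal-Retzius gene sums of 173 and 146 TPM, the highest of any library, and the part of this in the ratios was not tested.

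**Figure D2:**
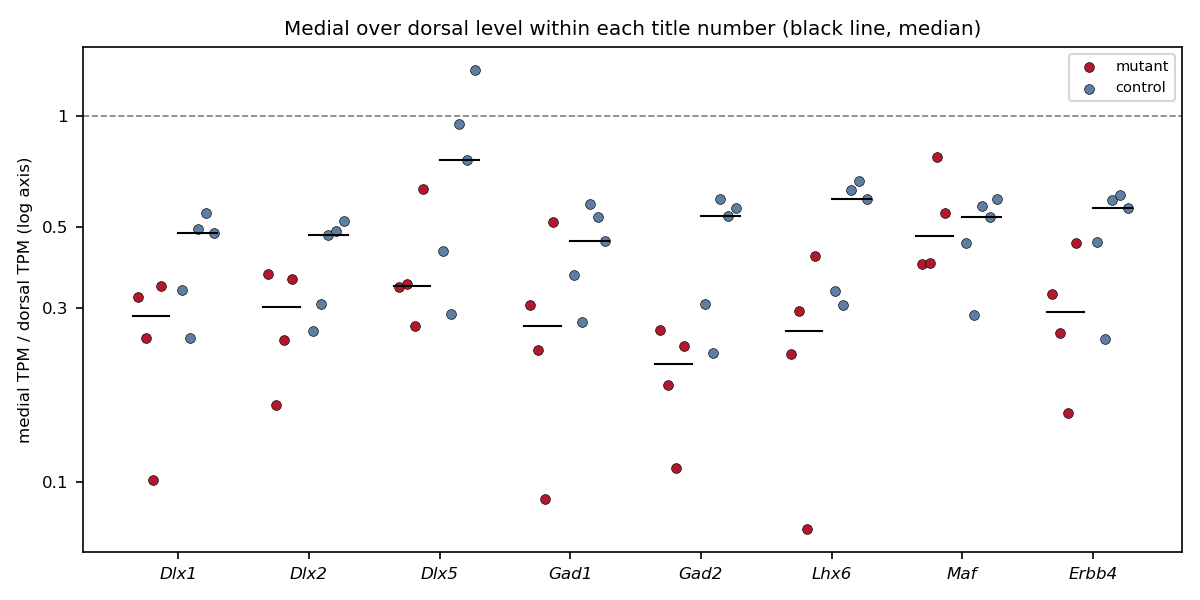
Medial level divided by dorsal level of the same embryo (vertical axis, log scale; 1 means equal) for each of the 8 genes, mutants left of controls; points are embryos and black lines medians. Gad2 had a median ratio of 0.210 in mutants and 0.533 in controls, and the only point above 1 is Dlx5 in control 6.

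Medially, mutants had less of the interneuron transcripts than controls for 5 of the 8 genes, Lhx6, Erbb4, Dlx1, Gad2 and Gad1. Of all genes tested, 30.2% were lower and 9.44% higher in this comparison, and the median log2 change of the 8 was -0.72 against -0.11 over all genes. After median-ratio rescaling the shares over all genes were 17.3% lower and 15.8% higher, and after quantile normalization 16.8% lower and 16.0% higher. The share called depended on the scaling, and so did the calls of the 8 genes. After quantile normalization 2 of them passed, and Dlx1 (limma adjusted p = 0.0700), Gad2 (0.0588) and Gad1 (0.132) did not. By Xist and Ddx3y, control libraries 2, 3 and 4 of both regions were female and all mutant libraries male. Sex was therefore not balanced between the genotypes.

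Lhx6 averaged 4.15 ± 3.04 TPM in mutant medial (SD, n = 4) and 10.9 ± 3.86 TPM in control medial cortex (n = 5). Its log2 change was -1.39 ± 0.37 (limma adjusted p = 0.00621), but mutant library 4, at 7.60 TPM, lay above control libraries 2 and 3. Dlx1 had 2.02, 2.58, 0.293 and 2.69 TPM in the mutants, against 3.01, 2.87, 5.09, 5.15 and 4.56 TPM in the controls. All 4 mutant libraries lay below all 5 control libraries, and the log2 change was -0.91 ± 0.29 (adjusted p = 0.0192). Dlx2, which acts redundantly with Dlx1, had a change of -0.46 ± 0.22 with a 95% interval from -0.91 to -0.0047 (adjusted p = 0.101), and Dlx5, a later Dlx factor, one of -0.26 ± 0.16 (interval from -0.60 to 0.08, adjusted p = 0.210).

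Maf did not pass the test medially. It had 1.53, 2.30, 2.98 and 3.42 TPM in the mutant medial libraries, against 2.43, 2.42, 4.04, 3.77 and 3.77 TPM in the control medial libraries. The groups overlapped, and the log2 change was -0.28 ± 0.18 with an interval from -0.65 to 0.09 (limma adjusted p = 0.223).

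The GABA-synthesising enzymes fell medially, but the call of Gad1 ended in 14 of 31 alternative analyses (limma adjusted p up to 0.181) and that of Gad2 in 5 of 31. Gad1 had 0.763, 0.981, 0.172 and 2.17 TPM in mutants, against 1.28, 1.45, 2.53, 2.83 and 1.94 TPM in controls, a log2 change of -0.63 ± 0.24 (limma adjusted p = 0.0425). Gad2 had 0.624, 1.01, 0.209 and 1.20 TPM in mutants, against 1.28, 1.17, 2.34, 3.60 and 2.18 TPM in controls, a change of -0.80 ± 0.26 (adjusted p = 0.0191). Mutant library 4 overlapped the controls for both, and the ratio of Gad2 to Gad1 averaged 0.904 ± 0.284 in mutants and 1.03 ± 0.18 in controls.

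Erbb4 had the lowest adjusted p of the 8 medially. It had 2.72, 3.01, 0.597 and 3.62 TPM in the mutant libraries, against 5.43, 4.51, 8.29, 8.88 and 7.45 TPM in the control libraries. No mutant library reached the lowest control library. The log2 change was -1.25 ± 0.29 (limma adjusted p = 0.00241), so Erbb4 and Dlx1 were the 2 of 8 genes without overlap, where 22.7% of all genes lay fully lower.

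Dorsally the means were lower in mutants too, but 1 of the 8 genes passed, Erbb4, where 27.6% of all genes were lower and 9.93% higher. After median-ratio rescaling those shares were 14.8% lower and 15.4% higher, and after quantile normalization 16.1% lower, with 1959 genes higher. Erbb4 had 8.33, 11.8, 3.86 and 8.02 TPM in the mutant dorsal libraries, against a lowest, median and highest of 10.4, 13.7 and 18.3 TPM in the control dorsal libraries. Mutant library 2 overlapped the controls, and the log2 change was -0.78 ± 0.28 (limma adjusted p = 0.0363). That call ended in 16 of 31 alternative analyses, among them those without control dorsal library 3, 4, 5 or 6 and those without mutant dorsal library 1, 3 or 4 (adjusted p from 0.0513 to 0.175).

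Lhx6 was the gene whose dorsal libraries did not overlap between genotypes (17.6% of all genes lay fully lower), at 8.11 to 18.6 TPM in mutants and 18.9 to 24.0 TPM in controls. Its log2 change of -0.60 ± 0.36 did not pass (limma adjusted p = 0.201, interval from -1.34 to 0.15). Maf had 3.86, 5.79, 3.85 and 6.28 TPM in mutant dorsal libraries, against 5.38, 6.79 and 8.44 TPM as the lowest, median and highest of the controls. Its groups overlapped, with a change of -0.41 ± 0.17 (adjusted p = 0.0657). Dlx5 averaged 1.04 ± 0.240 TPM in mutants and 1.07 ± 0.350 TPM in controls, a change of -0.0079 ± 0.16 whose interval ran from -0.34 to 0.32. Dlx1, Dlx2, Gad1 and Gad2 had log2 changes of -0.56 to -0.35 with adjusted p from 0.125 to 0.259.

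**Figure D3:**
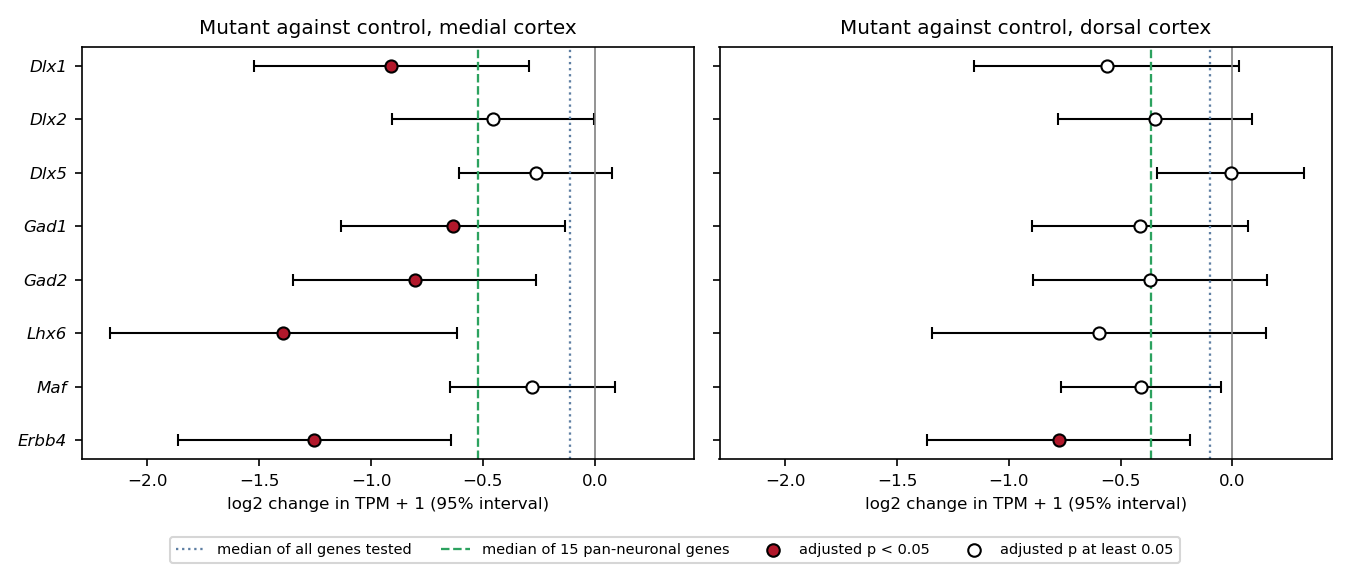
Log2 change, mutant over control, of each gene in medial and dorsal cortex (horizontal axis, log2 of TPM + 1), with 95% intervals from limma; filled points have an adjusted p under 0.05. The dotted line is the median of all genes tested and the dashed line the median of the 15 pan-neuronal genes; 5 medial points and 1 dorsal point are filled.

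The difference between the regions' genotype effects was tested directly, and 0 of 8 genes passed (limma; 0 at an unadjusted p under 0.05, and 1 of all genes tested, 0.0074%, passed). The medial change minus the dorsal change was -0.80 ± 0.51 for Lhx6, with an interval from -1.88 to 0.28. For Erbb4 it was -0.48 ± 0.40, and for Maf, the exception in sign, 0.13 ± 0.25. These intervals hold 0 as well as differences larger than the changes themselves, so the test does not show that the regions changed alike.

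The embryo numbered 3 had the lowest levels among the mutants for most of the 8 genes in both regions. An outlier rule, which set the gap to the next library against the range in the group, flagged 0 of 32 sets of gene and group. The medial library of mutant 3 had the lowest level of all 19 libraries for 7 of the 8 genes. Maf, at 2.98 TPM, was the exception, with rank 5 of 19 from the low end. The sum of the 8 genes was 5.32 TPM there, against 11.7, 16.4 and 22.4 TPM in mutant medial libraries 1, 2 and 4. The same library had the lowest pan-neuronal sum (1999 TPM), and the highest microglial sum (90.6 TPM) and meningeal sum (79.6 TPM), of any library. The part of these in its low interneuron transcripts was not tested. Its Npy was listed at 0.

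The dorsal library of that embryo had the lowest level of the mutant dorsal group for 7 of the 8 genes, Dlx5 being the exception. Without both libraries of mutant 3, an analysis added after seeing the data, 3 genes remained lower medially, where 27.6% of all genes were lower. Lhx6 changed by -0.91 ± 0.25 (limma adjusted p = 0.0107), Erbb4 by -0.91 ± 0.19 (adjusted p = 0.00174) and Dlx1 by -0.56 ± 0.17 (adjusted p = 0.0163). Gad2, at -0.64 ± 0.25 (adjusted p = 0.0548), and Gad1, at -0.40 ± 0.21 (adjusted p = 0.147), no longer passed. Leaving out the medial library of mutant 3 alone kept Lhx6 and Erbb4 (26.7% of all genes lower). Without control medial library 5, 3 of 8 were kept (30.1% of all genes lower).

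Genes expressed in neurons of all kinds were also lower in mutants, where 30.2% of all genes were lower medially and 27.6% dorsally. Of 15 pan-neuronal genes, 9 fell medially and 9 dorsally, with median log2 changes of -0.52 and -0.36; Tubb3, a neuronal tubulin, changed by -0.52 ± 0.11 medially and by -0.39 ± 0.11 dorsally (limma adjusted p = 0.0015 and 0.00901). The interneuron genes were therefore also set relative to those 15 genes, by rescaling each library to their mean. This rescaling moved the median of all genes to 0.28 medially, and 3.64% of all genes were then lower and 47.5% higher. Medially, 4 of 8 interneuron genes were lower relative to pan-neuronal genes. They were Lhx6 at -1.10 ± 0.36 (adjusted p = 0.0184), Erbb4 at -0.97 ± 0.25 (adjusted p = 0.00484), Dlx1 at -0.67 ± 0.26 (adjusted p = 0.0417) and Gad2 at -0.63 ± 0.23 (adjusted p = 0.0271). Gad1 did not pass, at -0.45 ± 0.22 (adjusted p = 0.0927), and Maf was at 0.042 ± 0.16. Dorsally, where the median of all genes moved to 0.14 3.01% of genes were lower and 16.5% higher, none of the 8 passed, and Erbb4 was at -0.54 ± 0.24 (adjusted p = 0.127).

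The other genes of the Dlx clusters were seen as far as they were expressed. Dlx3, Dlx4 and Dlx6 did not pass the expression filter, with highest levels of 0.0914, 0.0320 and 0.952 TPM. Dlx1as, an RNA from the strand opposite to Dlx1, fell medially by 1.35 ± 0.38 on the log2 scale (limma adjusted p = 0.0096), and dorsally its change was -0.54 ± 0.37 (adjusted p = 0.263). Dlx1as overlaps Dlx1, and the sources used here do not state the use of strand in counting, so their reads cannot be told apart with certainty. Dlx6os1, the RNA from the strand opposite to Dlx6, has 2 rows in the table with numeric suffixes, of which 1 was listed at 0 in all libraries. The other fell medially by 1.01 ± 0.33 (adjusted p = 0.0192).

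Among other genes of GABA handling and interneuron identity, 6 of 11 tested were lower and 1 higher in mutant medial cortex, where 30.2% of all genes were lower and 9.44% higher. In mutant dorsal cortex 5 were lower and 1 higher, where 27.6% of all genes were lower and 9.93% higher. The related lists that follow are set against the same shares. Slc32a1, which loads GABA into vesicles, had 1.11, 1.39, 0.345 and 2.18 TPM in mutant medial libraries, against 1.46, 2.10, 3.86, 4.97 and 2.98 TPM in control medial libraries. Mutant library 4 overlapped the controls, and the change was -0.85 ± 0.26 (limma adjusted p = 0.014). Abat, which breaks GABA down, fell on the log2 scale by 0.86 ± 0.09 medially and by 0.58 ± 0.09 dorsally. Aldh5a1, a GABA-breakdown enzyme of mitochondria, rose by 0.45 ± 0.10 medially and 0.36 ± 0.09 dorsally.

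Among genes of the medial ganglionic eminence lineage, 7 of 12 tested were lower medially and 5 of 12 dorsally, and none was higher (all genes, 30.2% and 27.6% lower). Npy, a neuropeptide gene, had 3.82, 5.70, 0 and 4.16 TPM in mutant medial libraries, against 5.55 to 9.38 TPM in control medial libraries, a change of -1.15 ± 0.43 (limma adjusted p = 0.0411). Mutant library 2 overlapped the controls, and the 0 of mutant library 3 weighs on the change and its call. Sst, the somatostatin gene of many Lhx6 interneurons, averaged 6.40 ± 4.95 TPM in mutant medial and 12.3 ± 5.36 TPM in control medial cortex. Its change of -1.06 ± 0.42 missed the threshold (adjusted p = 0.0525). Nos1 fell in both regions, by 0.89 ± 0.17 medially and by 0.97 ± 0.16 dorsally. Zeb2 also fell in both, and it is expressed in other cortical cells too.

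Of 13 tested genes of the caudal and lateral ganglionic eminences, 6 were lower and 2 higher medially, and 3 lower and 4 higher dorsally. Over all genes 30.2% were lower and 9.44% higher medially, and 27.6% lower and 9.93% higher dorsally. Sp8, a transcription factor of interneurons and of medial cortical progenitors, fell by 0.98 ± 0.18 medially (limma adjusted p = 0.000366) and by 0.61 ± 0.17 dorsally. Nr2f1 and Nr2f2, orphan nuclear receptors that cortical progenitors also express, rose by 0.72 ± 0.16 and 0.79 ± 0.25 medially, and by 0.68 ± 0.15 and 1.17 ± 0.24 dorsally. Vip was at 0 in all libraries.

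**Figure D4:**
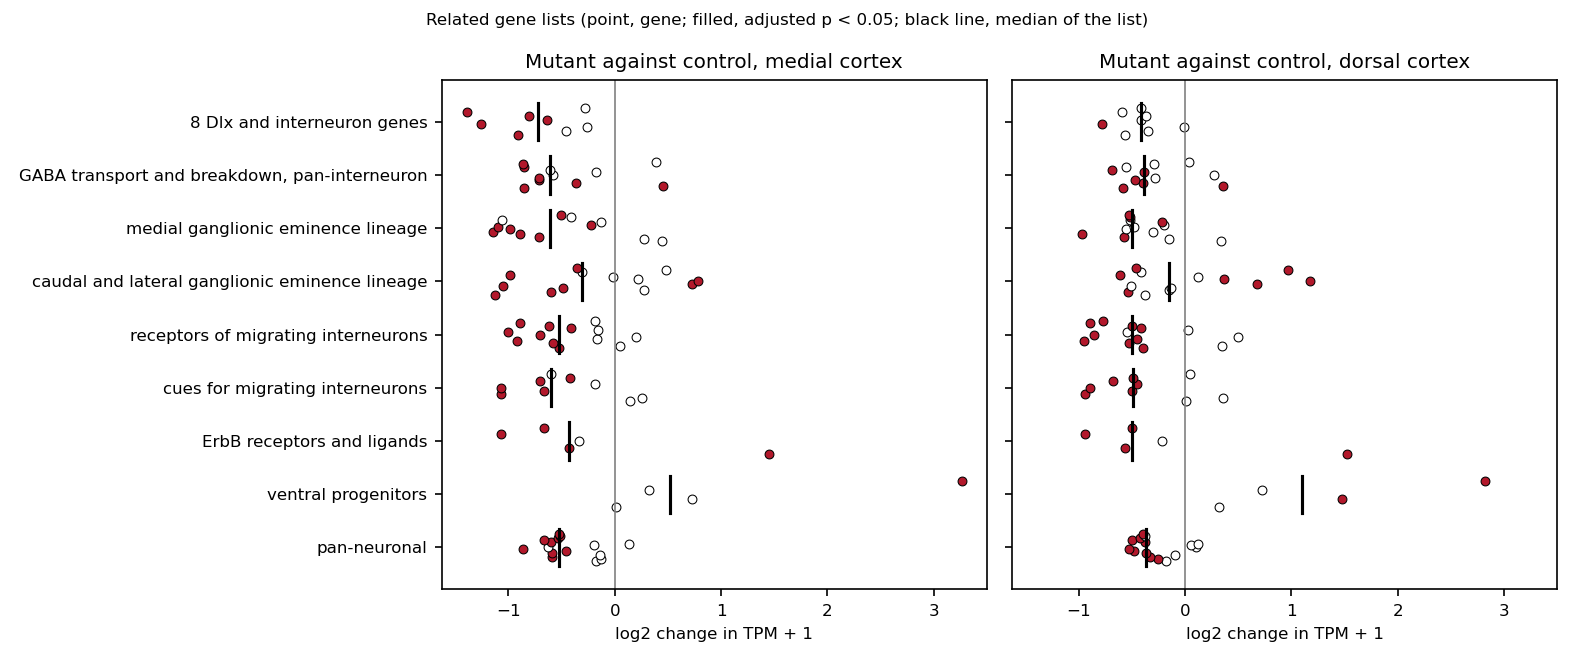
Log2 change, mutant over control (horizontal axis, log2 of TPM + 1), of the tested genes in each related list, in medial and dorsal cortex; each point is a gene filled where its adjusted p was under 0.05, and the black line is the list's median. The 8 interneuron genes have medians of -0.72 medially and -0.41 dorsally, against -0.52 and -0.36 for the pan-neuronal list.

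Receptors and cues of interneuron migration were measured in the same pieces. Of 13 receptor genes tested, 8 were lower in mutant medial and 9 in mutant dorsal cortex, and none was higher (all genes, 30.2% and 27.6% lower). Robo1, a Slit receptor, fell by 0.89 ± 0.16 medially and 0.89 ± 0.15 dorsally, and Nrp1, a semaphorin co-receptor, by 0.70 ± 0.11 and 0.85 ± 0.11. These genes are also expressed by excitatory neurons. The chemokine receptor Cxcr4 did not pass, at 0.048 ± 0.26 medially (limma adjusted p = 0.9) and 0.34 ± 0.25 dorsally (adjusted p = 0.298), while Ackr3, which scavenges its ligand, fell by 0.52 ± 0.13 and 0.39 ± 0.12. That ligand, Cxcl12, was at 0.14 ± 0.25 medially and 0.014 ± 0.24 dorsally.

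Of 9 cue genes tested, 5 were lower medially and 6 dorsally, beside the same 30.2% and 27.6% of all genes. Nrg1, a neuregulin that binds ERBB4, averaged 4.93 ± 0.638 TPM in mutant medial and 11.4 ± 0.225 TPM in control medial cortex, a change of -1.07 ± 0.08 (limma adjusted p = 4.85e-08). Dorsally it averaged 4.25 ± 0.496 TPM in mutants and 9.04 ± 0.614 TPM in controls, a change of -0.94 ± 0.08. Its mutant and control libraries did not overlap in either region. Nrg3, another ERBB4 ligand, fell by 0.67 ± 0.16 medially and by 0.50 ± 0.15 dorsally. Among the other receptors of the ErbB family, Egfr rose to 2.33 ± 0.592 TPM in mutant medial cortex, against 0.202 ± 0.0542 TPM in control medial cortex, and Erbb2 fell by 0.43 ± 0.09.

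Progenitor genes of the ventral forebrain did not fall with the interneuron genes. Olig2, a transcription factor of ventral progenitors and of oligodendrocyte precursors, rose by 3.27 ± 0.30 medially and 2.82 ± 0.29 dorsally. Gsx2, which patterns the lateral ganglionic eminence, averaged 2.28 ± 1.45 TPM in mutant dorsal and 0.0926 ± 0.114 TPM in control dorsal cortex and rose by 1.48 ± 0.28 there. Its medial change was 0.72 ± 0.29 (limma adjusted p = 0.0567). Olig1 did not pass in either region, and Nkx2-1, Gsx1, Nkx6-2 and Nkx2-2 did not pass the expression filter.

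Markers of other cells moved as follows in the same comparisons, where 30.2% of all genes were lower medially and 27.6% dorsally. Pallial glutamatergic genes were lower for 8 of 10 medially and 7 of 10 dorsally, and Cajal-Retzius genes for 6 of 7 medially and 0 of 7 dorsally (limma; 1 of the 7 at an unadjusted p under 0.05). Microglial genes were lower for 0 of 9 medially (0 at an unadjusted p under 0.05) and 5 of 9 dorsally, where their sums were 39.3 to 47.6 TPM in mutants and 55.4 to 78.5 TPM in controls. Of the striatal projection neuron genes tested, 1 of 5 was lower in each region, Ppp1r1b. Endothelial, meningeal, choroid plexus, erythroid and oligodendrocyte precursor lists had at most 1 gene past the test in either region. Their part in the results for the interneuron genes was not tested.

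The 8 genes varied together from library to library within groups. With each group's mean subtracted, the correlation of a gene with the mean of the other members over the 19 libraries was 0.953 for Gad1, 0.893 for Gad2, 0.893 for Lhx6, 0.887 for Dlx1, 0.869 for Erbb4 and 0.854 for Dlx2. The value was lower for Dlx5, 0.708, and for Maf, 0.593. The libraries share embryos and scaling, and mutant 3 weighs on these values, so they are descriptions. Other tested genes were ranked by their correlation with the mean of the 8 over the same 19 libraries. Predicted, mitochondrial, small-RNA and some sex-linked names, and names starting with Rn, were left out. The most alike were Slc32a1 (0.963), Nxph1 (0.955), Nrxn3 (0.949), the expressed Dlx6os1 row (0.941) and Mgat5b (0.933). Gpsm1, Dlx1as, Serpini1, Zfp30 and Hdac5 followed, at 0.928 to 0.917.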

How the data were processed

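RNA sequencing measured 19 libraries of E14.5 mouse cortex. Per the labels' protocols, the RNeasy Micro Kit gave the RNA, from which TruSeq Stranded Total RNA libraries were built. The deposited table gives TPM computed by the authors, on build mm10 per the submitters' processing notes. The sources used here do not name the aligner, quantifier, annotation or strand setting. TPM keep no read counts, so depth and counting error are unknown. Libraries were grouped by the genotype and region in their titles. The labels do not say that a group's libraries are separate embryos, so p-values reflect only the spread among these libraries, possibly technical.

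Values were analysed as log2(TPM + 1), computed here from the deposited TPM, for the 13520 genes that reached 1 TPM in 4 or more libraries. One mean per group was fitted over all 19 libraries with limma 3.58.1 under R 4.3.3 and statmod 1.5.0, using trend and robust moderation. P-values were adjusted by Benjamini and Hochberg over all genes tested, with a threshold of 0.05, and intervals cover 95%. The pseudocount understates changes of low genes. The comparisons were mutant against control in each region, the difference between these, and medial against dorsal in each genotype. Comparisons of the same groups share libraries. The test was tried on simulated data.

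The 8 genes and the gene lists were chosen with earlier results of these data known. The 8 genes, the other Dlx genes, Gli1 and 12 further genes were always to be named, of which 1 is not reported here. From each list, up to 4 genes with the lowest adjusted p were added, and so were the 10 non-member genes most alike across libraries. That ranking left out predicted, mitochondrial, small-RNA and some sex-linked names, and names starting with Rn. Alternatives changed the pseudocount, filter, scaling, libraries fitted, moderation, embryo block and sex term, or left out libraries. Dorsal and medial libraries with the same title number correlated in their deviations from group means in all 9 pairs (r from 0.549 to 0.795), so the number was read as the embryo; the data, not the labels, give this pairing. Description numbers differ from title numbers for the control medial libraries, and by them r ran from -0.438 to 0.047 in 5 control pairs, of which 3 matched in sex against 5 by title. Between mutants and controls r ran from -0.436 to 0.138 in 7 pairs, and the numbers do not pair mutants with controls. By Xist and Ddx3y, controls 2, 3 and 4 were female, and the other controls and all mutants were male. Positions came from GENCODE M21 and promoter windows from RefSeq (GRCm38.p6), read with Python 3.11.15; plots were drawn with matplotlib 3.10.9.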

Additional observations from a re-analysis of the deposited data

How the results depend on the processing

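Over 31 alternatives, the medial fall of Erbb4 passed in 31, that of Lhx6 in 30, Dlx1 in 28, Gad2 in 26 and Gad1 in 17. Medially 5 of the 8 genes passed, where 30.2% of all genes were lower. The count was 2 under quantile normalization (16.8% of all genes lower) and 1 under a fixed replicate block on title numbers (19.3%). It was 3 without both libraries of mutant 3 (27.6%), an alternative chosen after seeing the data. Leaving out 1 library gave 2 to 6 (25.4% to 30.9% of all genes lower). The numbers do not pair mutants with controls, so the fixed block spends degrees of freedom without a shared embryo. With the embryo as a random replicate block the counts were 5 medially and 1 dorsally (30.5% and 26.9% of all genes lower). Dorsally 1 gene passed, where 27.6% of all genes were lower. The count was 0 with a pseudocount of 0.1 or 0.5 TPM (27.4% and 27.5% of all genes lower) and without a filter (13.3%). It was also 0 after median-ratio rescaling (14.8%), quantile normalization (16.1%) or rescaling to pan-neuronal genes (3.01%). The same held with the fixed block (9.49%), with a sex term (25.4%), and without both libraries of mutant 3 (20.9%). The dorsal count was 3 when only the dorsal libraries were fitted (25.1% of all genes lower), and 0 to 2 on leaving out 1 library (20.5% to 28.6%). For medial against dorsal, the count in mutants was 8, where 10.8% of all genes were lower. It was 0 when only mutant libraries were fitted (fewer libraries, adjusted p of the 8 from 0.0569 to 0.0770), where 0 of 13520 genes passed. It was 7 to 8 on leaving out 1 library (5.01% to 15% of all genes lower), and 8 with the random (20.7%) or fixed (16.8%) embryo block. In controls the count was 7 (14.9% of all genes lower), and 6 to 8 on leaving out 1 library (11.3% to 15.6%). It was 7 with the random (22.4%) or fixed (20.4%) block. The difference between the regions' genotype effects gave 0 in all alternatives. Relative to pan-neuronal genes, the medial log2 changes of Tshz1 (0.061), Emx1 (0.049), Fezf2 (0.0048) and Tie1 (0.32) had the opposite sign to those in TPM. The rescaling set this, as it moved the median of all genes from -0.11 to 0.28. Tshz1, Emx1 and Fezf2 passed in TPM but not after rescaling (limma adjusted p = 0.747, 0.775 and 0.977). Tie1 passed only after rescaling (adjusted p = 0.0355), so none passed with both signs. Over all named genes and alternatives, 7355 values kept direction and side of the threshold, and 202 changed sign while past it in neither analysis. With the sign kept, 211 calls were lost and 71 gained. The 4 values above changed sign while past the threshold in 1 of the 2 analyses. The dorsal change of Dlx5 ran from -0.11 to 0.12 and was below 0 in 20 of 31, and the medial change of Maf was below 0 in 30 of 31.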
